A study of Mus musculus with 20 samples.

Results

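The chromatin of mouse embryonic fibroblasts (MEFs) was compared with that of the same cells on day 0 of reprogramming, directly after infection with retroviral Oct4 and Nanog. A region was counted as gained when it had an ATAC-seq peak in both day 0 libraries and none in MEFs, and as lost when it had a peak in MEFs and in neither day 0 library. By this rule 8104 regions were gained and 52123 were lost, 60227 changed regions out of 335858 regions with a peak anywhere in the series. The octamer bound by OCT4 lay at the summits of 1.93% of the gained and 0.169% of the lost regions. Most of the lost regions were weak peaks in MEFs.

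The day 0 libraries came from MEFs infected with Oct4 together with native Nanog (Nanog+Oct4 Day0) or with NanogN70 (NanogN70+Oct4 Day0), in which the BRG1-interacting N terminus of SS18 is joined to NANOG. There was 1 library for MEFs and 1 for each day 0 group. Day 0 marks the end of the infection in the study's methods, before the change to reprogramming medium. All 3 libraries came from primary fibroblasts of OG2 embryos, a mouse line with an Oct4-GFP reporter, crossed to 129 mothers, and embryos of both sexes were used. The labels do not say whether the MEF sample was mock infected. Infection, both factors, time in culture and the library itself therefore cannot be told apart. Neither MEF nor the day 0 groups had a replicate (ESCs had 3), so these groups could not be tested, and the 95% intervals given (exact binomial, by the Clopper-Pearson method) hold for counting error alone. Transposase reads without molecular identifiers are not independent molecules, so even this error is understated.

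ATAC-seq uses the Tn5 transposase to cut DNA that is not wrapped in nucleosomes, so peaks mark accessible sites. Promoters and enhancers are among these sites, and a peak does not measure their activity. OCT4 is a POU-family factor that binds the octamer ATGCAAAT and related shorter sites, in part on nucleosomal DNA, and NANOG is a homeodomain factor. In fibroblasts, distal open chromatin is largely kept by the FOS and JUN proteins (AP-1) and by TEAD factors. BRG1 is the motor of the BAF complex, which slides and ejects nucleosomes.

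The sequences around the summits of the strongest gained regions show the letters on which the comparison of sequence turns. Each line holds 50 bp on either side of a summit, from the forward strand of mm10. Capitals mark the octamer (ATGCAAAT), the POU core site (TATGCA), the core site with CA before it (CATATGCA), the palindrome ATGCAT, or the AP-1 site (TGAGTCA), on either strand. The first 4 are the gained regions with the highest pileup in both day 0 libraries. The shares given further on count letters within 25 bp of the summit only. Marks farther out, as in Lrrn1, in Tcf19 and at the core site of Fbln1, were not counted.
Dazap1, chr10:80264791-80264891: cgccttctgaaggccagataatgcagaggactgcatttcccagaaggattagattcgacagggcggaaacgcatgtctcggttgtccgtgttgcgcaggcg
Mad1l1, chr5:140249559-140249659: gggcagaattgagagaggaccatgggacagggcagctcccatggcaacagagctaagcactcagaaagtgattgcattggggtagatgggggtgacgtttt
Ccn1, chr3:145640270-145640370: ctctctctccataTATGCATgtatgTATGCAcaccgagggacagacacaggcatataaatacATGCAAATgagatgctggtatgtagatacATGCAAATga
Lrrn1, chr6:107658894-107658994: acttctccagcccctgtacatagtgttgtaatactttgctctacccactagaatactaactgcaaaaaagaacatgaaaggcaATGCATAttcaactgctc

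The window near Ccn1 held the octamer and the core site more than once and the palindrome once, and part of it is masked as repeat. Dazap1 and Mad1l1 had none of these letters. Further gained regions, picked after their values were seen from the strongest ones without masked bases that hold an octamer (Fbxo25) or CATATGCA (Ccnl1, Tab2), are shown next. They lie in introns and are named by the nearest protein-coding start, 22.4 kb, 124 kb and 47.7 kb away. This need not be the gene they lie in.
Fbxo25, chr8:13930423-13930523: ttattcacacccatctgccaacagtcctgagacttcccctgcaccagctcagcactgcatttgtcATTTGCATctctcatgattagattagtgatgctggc
Ccnl1, chr3:66083124-66083224: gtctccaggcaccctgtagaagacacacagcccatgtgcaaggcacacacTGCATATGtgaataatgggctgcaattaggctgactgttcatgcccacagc
Tab2, chr10:7908149-7908249: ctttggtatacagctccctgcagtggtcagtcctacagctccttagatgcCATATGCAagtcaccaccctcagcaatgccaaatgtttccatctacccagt

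The strongest lost regions are shown for contrast, followed by 2 lost regions with an AP-1 site near the summit, which were picked after their values were seen. Those 2 are named by the nearest start, 39.3 kb away for Fbln1 (intron) and 506 kb away for Tbl1xr1 (intergenic).
Tcf19, chr17:35513126-35513226: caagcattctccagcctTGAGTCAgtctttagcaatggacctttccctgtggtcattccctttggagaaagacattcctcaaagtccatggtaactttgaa
Tmsb4x, chrX:167207353-167207453: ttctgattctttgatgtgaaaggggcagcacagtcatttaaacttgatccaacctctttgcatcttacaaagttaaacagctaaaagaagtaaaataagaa
Pcp4, chr16:96525401-96525501: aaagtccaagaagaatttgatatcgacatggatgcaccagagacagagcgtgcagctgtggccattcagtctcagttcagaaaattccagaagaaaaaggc
Fbln1, chr15:85245389-85245489: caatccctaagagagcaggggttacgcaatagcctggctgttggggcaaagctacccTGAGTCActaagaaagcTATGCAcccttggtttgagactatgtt
Tbl1xr1, chr3:21569910-21570010: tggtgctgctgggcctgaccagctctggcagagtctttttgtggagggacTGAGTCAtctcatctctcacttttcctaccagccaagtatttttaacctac

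Depth differed between the libraries and bears on every count. The deposited lists held 125467 peaks for MEFs, 69575 for Nanog+Oct4 Day0 and 107038 for NanogN70+Oct4 Day0. Pileup, the number of tags over a peak's summit, is not scaled to depth in these files. In 14217 regions that were open in each of the 20 libraries its median was 39 in MEFs, 16 in Nanog+Oct4 Day0 and 24 in NanogN70+Oct4 Day0. Peaks over exons of the vector-borne genes were left out, 10 regions in these libraries. The X chromosome held 2.04% to 2.39% of the peaks of each of the 3 libraries.

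Of the 158218 regions open in at least 1 of the 3 libraries, 5.12% were gained, 32.9% were lost and 25.5% (40282 regions) were kept, with a peak in all 3. A further 31483 regions were found only with NanogN70 and 4392 only with native Nanog. Both libraries thus shared 64.9% of the regions closed in MEFs that had a peak with Nanog+Oct4, but 20.5% of those that had one with NanogN70+Oct4. Gained regions made up 13.5% (13.2% to 13.7%) of the changed regions, but 32.2% with the same number of top peaks in each library and 40.2% with the NanogN70+Oct4 library alone.

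**Figure D1:**
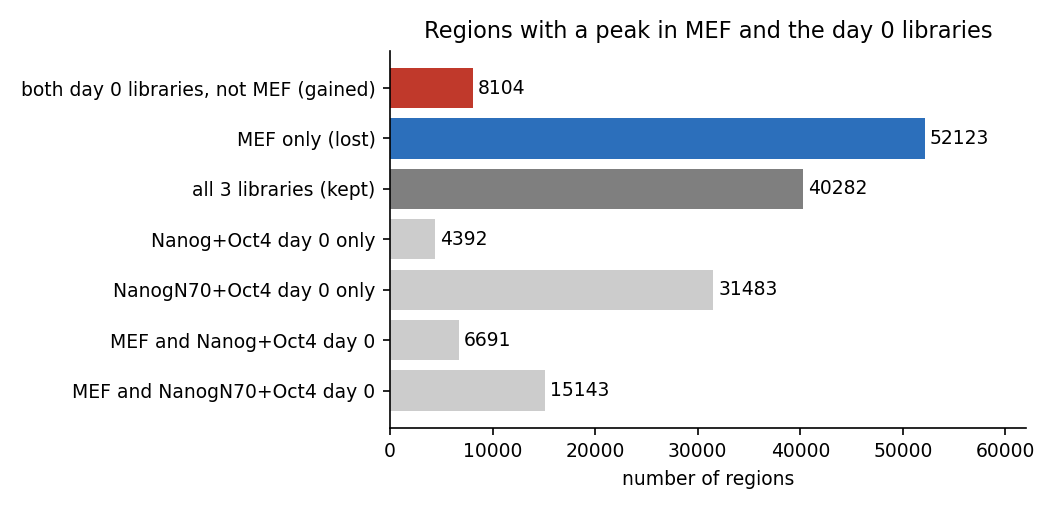
Number of regions (count beside each bar) for every combination of peaks in MEFs and the day 0 libraries, 1 library per condition. Lost regions (52123) and kept regions (40282) outnumbered gained regions (8104), and 31483 regions had a peak only in NanogN70+Oct4 Day0.

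Most lost regions were weak in MEFs. Their MEF pileup ranged from 4 to 115 with a median of 7 and an upper quartile of 10. Among MEF regions with a pileup of 4 to 9, 71.5% (71.1% to 71.9%) were lost. This share was 38.9% at 10 to 19 and 9.7% (9.27% to 10.1%) at 20 to 39. Of the 8365 regions with a pileup of 40 to 79, 65 were lost (0.777%), and of the 1946 above that 1 was lost. Strong MEF regions were thus still open in both day 0 libraries in nearly all cases, with 97.4% and 99.8% kept in these last groups. Of these kept regions, 65.2% and 86.6% lay within 2 kb of a transcript start. A peak in at least 2 of the 3 ESC libraries was found in 71.7% and 91.5%, so most were not particular to fibroblasts.

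**Figure D2:**
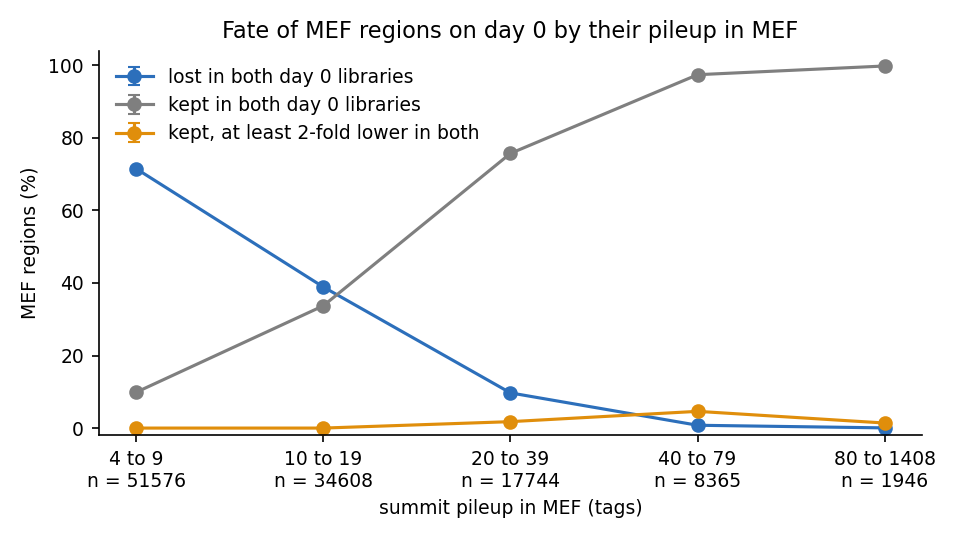
Share of MEF regions (%) that were lost, kept, or kept with an at least 2-fold lower scaled pileup in both day 0 libraries, against the summit pileup in MEFs (tags, n regions under each group); bars are 95% exact intervals and mostly smaller than the points. The lost share goes from 71.5% in the weakest group to 0.0514% in the strongest.

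To compare both directions at a like depth, pileups were divided by the library's median at the 14217 regions above. A gained region was called firm when both scaled day 0 pileups reached the median pileup of all MEF peaks, and a lost region when its scaled MEF pileup reached the median of all peaks of each day 0 library. The firm set held 6209 gained regions, 3.92% of the regions open in any of the 3 libraries, and 1788 lost regions, 1.13%. The number of firm losses depended on the scaling (3983 when scaled at distal regions). It also depended on the limit (209 to 4948 for the quartiles of pileup). With the same number of top peaks per library, 3041 gains and 2622 losses were firm. These limits are not equally strict, since the firm loss needed a MEF pileup of 19.5 and the firm gain one of 10 on the same scale. With 19.5 as the limit in both directions, which was chosen after the data were seen, 1849 regions were gained and 1788 lost. The direction of the balance therefore depended on the limit, with 13.5% gained over all changed regions and 77.6% (76.7% to 78.6%) over the firm ones. Other settings went past this range. With a minimum score of 100, 9.03% of the changed regions were gained, and with the upper quartile as the limit 1849 regions were gained and 209 lost.

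Among the 10 strongest gained regions, MEFs had no peak and both day 0 libraries had pileups of at least 24. The first, in an exon of Dazap1, a gene for an RNA-binding protein (mm10 chromosome 10, 80264288 to 80265348), had pileups of 35 with Nanog+Oct4 and 46 with NanogN70+Oct4. It had a peak in all 3 ESC libraries and on all 7 later days of both paths. The region in an intron of Mad1l1, a spindle checkpoint gene (chromosome 5, 140248990 to 140250231), reached 30 and 62, was open on all later days of both paths and had no peak in ESCs. The intergenic region 8.9 kb from the start of Ccn1, which encodes a matricellular protein and is a well known YAP target (chromosome 3, 145639700 to 145641079), had pileups of 29 and 55. These 3 differ in their later course, since only the first was open in ESCs.

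Pileups were 29 and 41 in the intergenic region 129 kb from the start of Lrrn1, a neuronal membrane protein with leucine-rich repeats (chromosome 6, 107658694 to 107659355). Further ones lay in introns of Anks1 (27 and 47), Cab39 (26 and 44), Pkia (27 and 39) and Kdm2a (24 and 38) and 6.34 kb from the start of Nme9 (27 and 39). Kdm2a encodes a histone H3K36 demethylase and Pkia an inhibitor of protein kinase A. In all 10 the NanogN70 pileup was the higher one as deposited, as it was in the median of the fixed regions (24 against 16), and the libraries were not compared further here.

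The strongest lost region lay over Tcf19 (chromosome 17, 35512106 to 35515098, exon), next to Pou5f1, the gene of OCT4. Its pileup was 115 in MEFs, and no peak was called in either day 0 library, where 47.2 and 70.8 would correspond to the MEF pileup at their depth. It was 210, 194 and 176 in the ESC libraries and 45 and 63 on day 12 of the Nanog and NanogN70 paths. No peak was found on day 1 in either path. The neighbouring region over exons of Pou5f1, left out as vector reads, had pileups of 48 in MEFs and of 730 and 576 in the day 0 libraries. On its other side 2 weak MEF regions (11 and 8) also had no day 0 peak, while the next region beyond Tcf19 was kept (70, 35 and 43). The OG2 reporter carries Pou5f1 sequence too, and the part of the vector signal or of the reporter in this loss was not tested.

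The next lost regions lay in an exon of Tmsb4x, which encodes the actin-binding thymosin beta 4 (chromosome X, 167207076 to 167207525, MEF pileup 67), and in an exon shared by Pcp4 and Igsf5 (chromosome 16, 96525382 to 96525776, 66). Further regions were found 16.7 kb from Tspan11 (60), over an exon of Gm24830 near Fcgr1 (59), 63.8 kb from Gm21897 (58) and in an intron of Daam2, a formin of the Wnt pathway (56). The last ones lay 114 kb from Hif1a (54), 4.26 kb from Ahnak (54) and in an intron of Ccn4, a Wnt-induced matricellular gene (53). In ESCs, peaks were present at the regions of Tcf19, Gm24830 and Ahnak and at none of the other 7. These 3 regions also had a peak again on at least 5 of the 7 later days of each path, whereas the other 7 had one on at most 3.

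**Figure D3:**
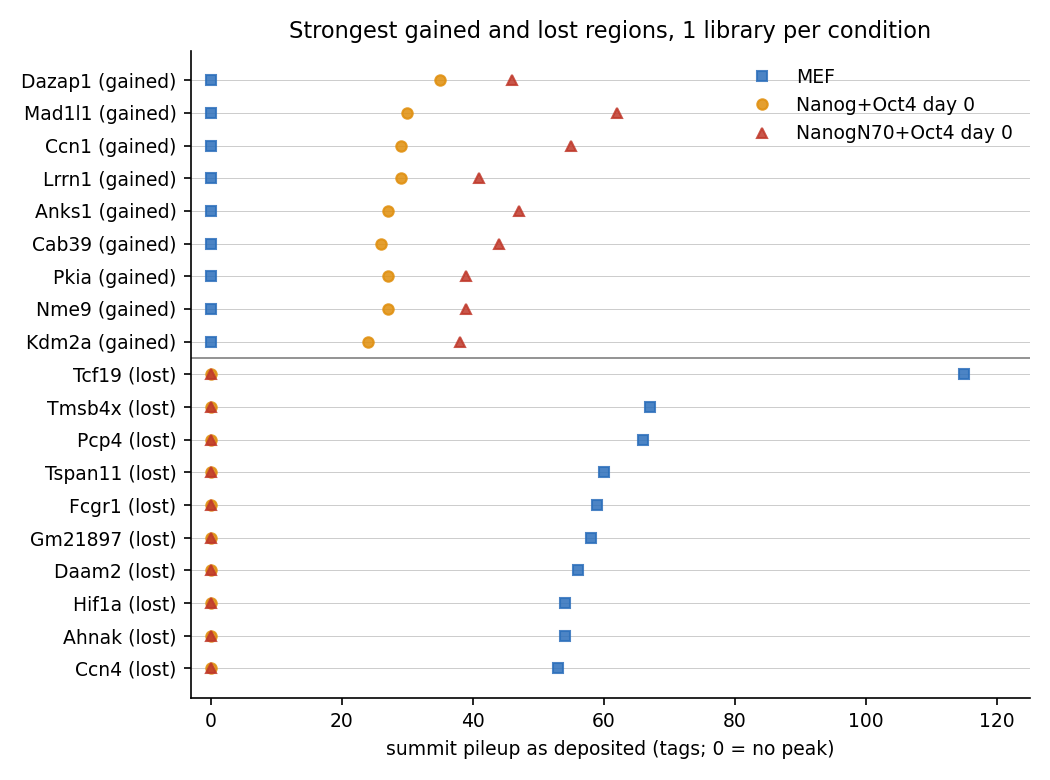
Summit pileup (tags, as deposited, 0 where no peak was called) of 9 of the 10 strongest gained and of the 10 strongest lost regions in MEFs (squares), Nanog+Oct4 day 0 (circles) and NanogN70+Oct4 day 0 (triangles). The region over Tcf19, which lies next to the left-out vector region of Pou5f1, had a MEF pileup of 115, and the other lost regions had 53 to 67.

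Gained regions were mostly distal. Within 2 kb of a transcript start lay 12.9% (12.2% to 13.6%) of the gained regions, 15.6% (15.3% to 15.9%) of the lost and 41.0% (40.5% to 41.4%) of the kept ones. The median distance to a transcript start was 13.2 kb for gained and 4.62 kb for kept regions. Lost regions differed from kept ones also at a like MEF pileup. At 20 to 39, 19.9% (18.1% to 21.9%) of the lost and 42.7% (41.9% to 43.6%) of the kept regions were at promoters, although at 4 to 9 both shares were close (14.2% and 14.6%).

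Of all regions open in any of the 3 libraries, 24.1% had a peak in at least 2 of the 3 ESC libraries. Such peaks were found in 5.98% (5.48% to 6.52%) of the gained regions (11.2% with the same number of top peaks in each library), in 14.6% (14.3% to 15%) of the lost and in 51.8% (51.3% to 52.2%) of the kept regions. At a MEF pileup of 4 to 9, which most lost regions had, the ESC share was 13.7% for lost and 24% for kept regions. At 20 to 39 it was 14.4% (12.8% to 16.1%) for lost and 52.7% (51.9% to 53.6%) for kept regions. Of the gained regions, 77.8% had a peak in some library other than these 3, against 36.4% of the lost regions and 89.3% of the kept ones. Over all regions open in any of the 3 this share was 60.4%.

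The consensus letters of OCT4 were more frequent in gained than in lost or kept regions. The octamer lay within 25 bp of the summit in 1.93% (1.64% to 2.25%) of the gained regions, 0.169% (0.135% to 0.208%) of the lost and 0.365% (0.308% to 0.429%) of the kept ones, and in 0.606% of all regions open in any of the 3 libraries. Of all 6-letter words in windows without masked bases, 2079 words in either orientation, TATGCA had the largest gap among those more frequent in gained than in kept regions, 10.1% against 2.45%, and it was searched after this was seen. Over all windows it lay in 11.4% (10.7% to 12.1%) of the gained, 2.0% (1.89% to 2.13%) of the lost and 2.6% (2.45% to 2.76%) of the kept regions. CATATGCA, which contains it, lay in 2.15%, 0.152% and 0.209%, and the palindrome ATGCAT in 6.15%, 1.34% and 1.51%. At least 1 of these 4 overlapping words was present in 14.6% (13.8% to 15.4%) of the gained, 3.02% (2.88% to 3.17%) of the lost and 3.66% (3.48% to 3.85%) of the kept regions, and in 5.63% of all regions open in any of the 3. The octamer was on the list of known sites, and over all GC contents its interval in gained regions lies apart from those of lost and kept regions. The other 3 words were chosen for their gap in these same regions, so their shares and the combined share are a description.

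Base composition differed too, with a mean GC content of 43.7% in the windows of gained, 49.9% of lost and 54.9% of kept regions. Within steps of 5 percentage points of GC content the octamer was more frequent in gained than in lost regions at each step from 30% to 55%. From 35% to 40%, for example, it lay in 2.9% (2.17% to 3.78%) of 1796 gained and 0.483% (0.313% to 0.713%) of 5173 lost regions. From 55% to 60% the interval for gained regions (0.00763% to 1.67%) did not separate them. Against kept regions the gap was smaller, with overlapping intervals from 30% to 35% (3.35% and 1.28%) and from 50% to 55% (0.862% and 0.411%). Weighted to the GC content of the gained regions, the POU words reached 3.79% in lost and 6.4% in kept regions.

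The words were not limited to the regions on which both day 0 libraries agreed. They lay in 12.7% (11.8% to 13.8%) of the regions found only with Nanog+Oct4 and in 10.5% (10.2% to 10.8%) of those found only with NanogN70+Oct4. Among the gained regions they were present in 14.1% (12.6% to 15.8%) of the weakest and in 16% (14.6% to 17.5%) of the strongest of 4 groups by scaled pileup, with intervals that overlap. Regions with and without a word differed by some percentage points in their later course. On day 1 of the Nanog path 52.7% (49.8% to 55.6%) of the 1182 regions with a word had a peak, against 49.1% (47.9% to 50.3%) of the 6918 without, and on day 5 the shares were 46.1% (43.2% to 49%) and 39.6% (38.4% to 40.7%). The order was the opposite on day 10 of the NanogN70 path, 3.13% (2.21% to 4.29%) with and 4.87% (4.38% to 5.41%) without a word, and in ESCs, 3.47% (2.5% to 4.68%) with and 6.37% (5.81% to 6.98%) without a word.

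**Figure D4:**
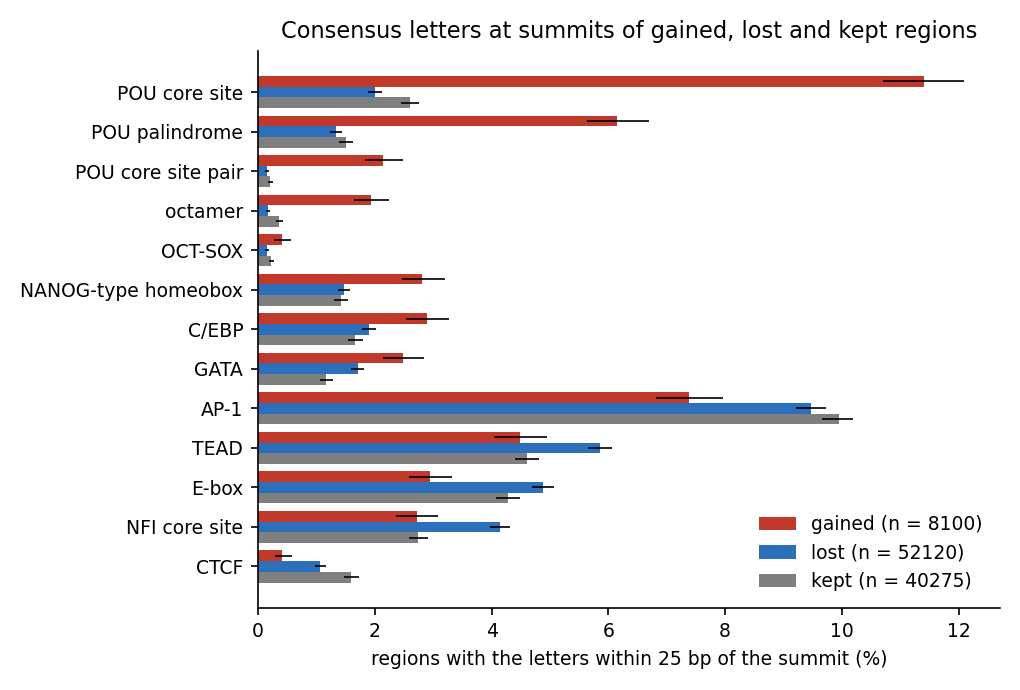
Share of gained, lost and kept regions (%) with each consensus within 25 bp of the summit, with 95% exact intervals; the POU core site is TATGCA, the pair CATATGCA, the palindrome ATGCAT and the octamer ATGCAAAT. The octamer lay in 1.93% of gained regions against 0.169% and 0.365% of lost and kept ones, the other 3 POU words were chosen for such a gap, and AP-1 runs the other way (7.38% against 9.47% and 9.95%).

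Letters of other factors were compared in the same way. The ETS site CCGGAAG lay in 0.0864% (0.0348% to 0.178%) of the gained, 0.29% (0.245% to 0.34%) of the lost and 1.67% (1.55% to 1.8%) of the kept regions, and at the GC content of gained regions in 0.129% and 0.361% of lost and kept ones. CCATTA, a sequence of the NANOG-type homeobox, lay in 2.81% (2.47% to 3.2%) of the gained regions, 1.47% (1.37% to 1.58%) of the lost and 1.42% (1.3% to 1.54%) of the kept ones, but weighted to the GC content of gained regions the last shares were 1.97% and 2.38%, and that of all regions open in any of the 3 libraries was 2.75%, close to the share of gained regions. Among regions open in 1 day 0 library alone it was present in 4.09% (3.87% to 4.31%) with NanogN70+Oct4 and 1.6% (1.25% to 2.01%) with Nanog+Oct4. The combined site of OCT4 and a SOX factor (TGTNATGCA) was rare, in 0.407% of the gained, 0.153% of the lost and 0.228% of the kept regions, and in 0.412% of the kept regions when weighted to the GC content of gained ones. Letters of C/EBP (TTGCNNAA) and GATA factors (AGATAA) were each found in under 3% of every group, at 2.89% and 2.48% of the gained regions, and for GATA the difference from lost regions was not seen once weighted by GC content (2.48% in both).

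AP-1 letters (TGAGTCA), read by FOS and JUN proteins, lay in 7.38% (6.82% to 7.97%) of the gained, 9.47% (9.22% to 9.73%) of the lost and 9.95% (9.66% to 10.2%) of the kept regions, and in 8.7% of all regions. Weighted to the GC content of gained regions it was 9.99% in lost and 13.4% in kept regions. In firm lost regions the share was 13.0% (11.5% to 14.6%). At a MEF pileup of 4 to 9, which most lost regions had, it was 8.83% (8.54% to 9.12%) in lost and 10.5% (9.65% to 11.4%) in kept regions. At 10 to 19 lost and kept regions had the same AP-1 share, 10.8%. At 20 to 39 it was 13.1% (11.5% to 14.8%) in lost and 11.0% (10.5% to 11.6%) in kept regions, and these intervals overlap. TEAD letters (CATTCCA or CATTCCT) lay in 4.48% of the gained, 5.86% of the lost and 4.61% of the kept regions (6.49% and 6.75% of lost and kept regions at the GC content of gained ones), and the core letters of NFI (TTGGCA) in 2.72%, 4.14% and 2.74%. The E-box CAGCTG, bound by bHLH factors, lay in 2.94%, 4.88% and 4.28%, with 3.32% and 3.13% of lost and kept regions after weighting to the GC content of gained ones. Letters of the insulator protein CTCF (CNAGNGGGC) lay in 0.42%, 1.06% and 1.6%, and after weighting in 0.616% and 0.565% of lost and kept regions.

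In kept regions the size of the peak could be compared. At least 2-fold higher in both day 0 libraries after scaling were 3073 kept regions (7.63%), and at least 2-fold lower were 727 (1.8%). A fall of this size can be seen only where the MEF pileup is 19.5 or more, while a rise can be seen anywhere. In the regions above this limit, 115 were higher and 727 lower, so the larger number of rises came from regions with weak MEF peaks. The balance also depended on the scaling and the library, with 2462 higher and 1482 lower when scaled at distal regions, and 6471 and 4783 with NanogN70+Oct4 alone. The POU words lay in 9.15% (8.15% to 10.2%) of the higher and 3.3% (2.13% to 4.87%) of the lower regions. The median MEF pileup was 7 in the higher and 42 in the lower regions, and over all kept regions the share of POU words was 6.94% at a MEF pileup of 4 to 9, 3.13% at 20 to 39 and 2.04% at 40 to 79. CCATTA was present in 2.9% (2.33% to 3.55%) of the higher and 1 of the 727 lower regions, 0.138% (0.00348% to 0.764%). AP-1 letters lay in 10.5% (9.48% to 11.7%) of the higher and 15.5% (13.0% to 18.4%) of the lower regions.

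Ranked by the smaller of both differences, the largest rise was seen in an intron of Lpp, a focal adhesion gene (chromosome 16, 24778428 to 24779221), where pileups were 4 in MEFs, 22 with Nanog+Oct4 and 32 with NanogN70+Oct4. On the scaled log2 scale this is a difference of 3.74 and 3.7 (in single libraries it reached 4.14 near 9330182O14Rik and 3.93 in Fndc3a), and the summit carries an octamer. The other rises lay in introns of Itga1, an integrin (4, 19 and 32 tags), and Traf3 (5, 23 and 35), in an exon of Fndc3a (5, 22 and 47), and far from any start near 9330182O14Rik (4, 29 and 28). The largest falls lay 50.7 kb from Ccdc42 (59, 5 and 6), 21.2 kb from Tpd52l1 (55, 5 and 5), in an intron of Tmem178b (64, 6 and 5), in an exon of 1700054K19Rik near Lmcd1 (74, 7 and 8) and 368 kb from Ins1 (73, 7 and 10). Of these 5 falls, that near Lmcd1 alone was open in ESCs, in all 3 libraries.

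The labelled cell type was checked at fibroblast genes, whose promoters were open in all 3 libraries with 1 exception. Of 16 fibroblast genes, the promoters of 15 were kept and none was gained or lost, beside 1107 of 21911 protein-coding genes with a lost promoter (5.05%) and 61 with a gained one (0.278%). Regions were also assigned to the nearest protein-coding start within 100 kb. By this measure 15 firm lost and 10 firm gained regions lay next to the fibroblast genes, and 1239 and 4063 next to all genes. A firm loss needs a MEF pileup of at least 19.5, so genes chosen as open in MEFs can show more losses by construction. Next to these 16 genes lay 79 kept regions, and next to all 21911 genes 32486. The difference in balance was not tested and is only a description. Col1a1, the main chain of type I collagen, had 4 firm lost and no firm gained region, and its partner Col1a2 had 3 and 2. Col5a1 and Pdgfrb, the receptor for PDGF-BB, had 2 firm lost regions each, while Postn had 4 firm gained and none lost.

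Col1a1 was also, with Zmiz1, the gene with the most net losses. The lost regions of Col1a1 had MEF pileups of 26 at 61.6 kb, 21 at 8.2 kb and 29 at 7.84 kb from its start, and 21 in its exons. The one at 7.84 kb carried an AP-1 site. At the promoter of Col1a1 pileups were 50 in MEFs, 13 with Nanog+Oct4 and 28 with NanogN70+Oct4, and at that of Col1a2 68, 15 and 25. These pileups are not scaled, and the medians at the fixed regions were 39, 16 and 24. Zmiz1, a transcriptional coactivator, had 4 firm lost regions with MEF pileups of 31, 23, 34 and 30. With 3 each followed Smad6, an inhibitor of BMP signalling, Irs2, an adaptor of the insulin receptor, Ppargc1a, a coactivator of mitochondrial genes, as well as Magi1, Xylt1, Snx18, Myoz3 and E030018B13Rik.

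The gene with most net gains in the firm set was Rps6kc1, with 6 firm gained regions, all in its introns. The strongest of these, 49.6 kb from its start (chromosome 1, 190861339 to 190862134), had pileups of 20 with Nanog+Oct4 and 42 with NanogN70+Oct4 and was open on 6 of 7 later days of the Nanog path and on all 7 of the NanogN70 path. Anxa5, a phosphatidylserine-binding annexin, Gap43, a growth cone protein of neurons, Ica1 and Zmym4 had 5 each and no firm loss. At Gap43 the strongest lay 2.07 kb from the start with pileups of 20 and 35, and it was open in all 3 ESC libraries. Ankrd11, Arid5b, Bank1, Cox10 and 4933412E24Rik had 4 each. With weak regions included, lost regions were as many as gained ones or more at Gap43 (5 and 5), Ica1 (9 and 5), Cox10 (8 and 4), Arid5b (7 and 4) and 4933412E24Rik (5 and 4). Several gained regions next to 1 gene were the exception, since 671 of 3217 genes with any firm gained region had 2 or more, and 31 had 4 or more.

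Across the 21 gene lists, 391 genes were found in the annotation. Of these, 27 had a lost promoter (6.91%), 2 a gained one and 261 a kept one. The lost promoters were weak, with MEF pileups of 4 to 21, and only that of Zbp1, a sensor of Z-form nucleic acid, reached 20. The share of lost promoters is near that of all genes.

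Promoters of interferon and antiviral genes were lost in 6 of 29 cases, among them Zbp1 (MEF pileup 21), Ifnb1 (10), Oas1a (8) and Ifit3 (6), while 18 were kept. This is 20.7% of the list, with 5.05% over all genes, but shares of like size were found in the skeletal muscle (25%), endothelial (21.4%) and epithelial (20%) lists. Ifnb1 encodes interferon beta, and the others are induced by interferon. In the inflammatory and NF-kB list 3 of 26 were lost, at Traf1 (15), Cxcl5 (9) and Cxcl2 (6), while Ccl2, Nfkbia and Nfkb1 were kept. No promoter of these lists was gained, where over all genes 0.278% were, so the count of 0 says little about these lists. Next to the inflammatory genes lay 8 firm gained and 3 firm lost regions, near the balance over all genes of 3.28 firm gained regions per firm lost one.

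In the pluripotency list 1 promoter of 31 was gained, that of Gdf3, a TGF-beta family ligand close to Nanog, with pileups of 9 and 8. Promoters of Otx2 and Dppa2 were lost (MEF pileup 9 each), 16 were kept and 9 had no peak in any of the 3 libraries. Around these genes lay 5 firm gained regions and 1 firm lost one, beside 4063 and 1239 over all genes. Klf4 had 2 firm gained regions and the firm lost one, and Tfcp2l1 had 2 firm gained ones, both being factors of the naive state. In the TGF-beta pathway 21 of 22 promoters were kept and none was gained or lost, with 5 firm gained and 12 firm lost regions near its genes, among them 3 at Smad6 and 2 at Ltbp2. All 16 promoters of the TEAD and YAP list were kept, with 10 firm gained and 2 firm lost regions, of which Yap1 had 3 gained. These counts per list are small, and none was tested against the balance of all genes. Over all genes 13139 of 21911 promoters were kept, and the lists of widely expressed genes, housekeeping genes included, were near complete. For the AP-1 family 14 of 16 promoters were kept, for cell cycle genes all 24, for p53 targets 17 of 18, for serum response and contractile genes 17 of 18, for BAF subunits 21 of 22 and for housekeeping genes all 12.

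Mesenchymal transcription factors had 25 of 32 promoters kept and 2 lost, at Barx1 (6) and Tcf21 (5), with 11 firm gained regions, 4 of them at Tcf4, and 3 firm lost ones, near the balance of all genes. Promoters without a peak in any of the 3 libraries numbered 6126 of 21911 over all genes. In the lists of other lineages they were 7 of 12 erythroid, 9 of 12 hepatocyte, 8 of 14 macrophage and leukocyte, 6 of 12 keratinocyte, 6 of 12 skeletal muscle, 5 of 14 neural, 4 of 14 endothelial and 3 of 20 epithelial genes. Kept promoters numbered 8 among the epithelial, 5 among the endothelial, 5 among the neural and 1 among the skeletal muscle genes. There were 3 each in the macrophage and leukocyte and the keratinocyte list, and 2 each in the hepatocyte and the erythroid list. Lost ones were Cdh3 (19), St14 (8), Krt18 (6) and Cdh1 (5) among epithelial, Mmrn2 (15), Cdh5 (8) and Sox17 (6) among endothelial, and Des (12), Myf6 (10) and Pax3 (8) among muscle genes. Laptm5 (11), Dsc3 (8), Olig2 (13) and Sox3 (5) were lost in the remaining lists. Chrna1, a subunit of the muscle acetylcholine receptor, had a gained promoter, with pileups of 10 and 26. Summed over its list and divided by the library's median, the epithelial pileup was 9.1 in MEFs, 7.81 with Nanog+Oct4 and 10.3 with NanogN70+Oct4, and the endothelial one 4.56, 3.81 and 3.96. The part of such cells in the lost regions was not tested.

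Gained promoters were few and weak over all genes as well. Among the highest were those of Gm7544 (11 and 18), Chrna1, Serpine3 (10 and 16) and Tfec (10 and 17), and among those that followed were U90926 (9 and 29) and Acod1, the enzyme that makes itaconate in macrophages (9 and 13). The highest lost promoters were those of Kcnt2 (MEF pileup 37), Aqp1, a water channel (33), C1qtnf3 (30), Phyhd1 and Zfp474 (28 each). These genes were ordered after their values were seen.

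In libraries that the rule did not use, fewer gained regions had a peak on the late days than on day 1. A peak was found in 49.7% (48.6% to 50.8%) of them on day 1 of the Nanog path and in 61.2% (60.1% to 62.3%) on day 1 of the NanogN70 path. With native Nanog the share was 33.2% on day 3, 40.5% on day 5, 33.6% on day 7, 28.1% on day 8, 15.1% on day 10 and 8.01% (7.43% to 8.62%) on day 12. With NanogN70 it was 31.2%, 34.5%, 24%, 14.6%, 4.65% and 5.38% (4.9% to 5.89%) on the same days. Depth differs between these libraries, with a median pileup at the fixed regions of 16 on day 1 of either path and of 24 and 41 on day 12. In the same libraries kept regions had a peak in 73.1% and 69% of cases on day 1 and in 53.1% and 49.5% on day 12, so the gap between kept and gained regions was wider on day 12. Over all regions open in any of the 3 libraries the shares were 30% and 33.8% on day 1 and 20% and 20.1% on day 12. Gained regions thus lay above the share of all regions on day 1 and below it on day 12.

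Most lost regions had no peak in any single later library. They had a peak in 5.72% (5.53% to 5.93%) of cases on day 1 of the Nanog path and in 3.8% (3.64% to 3.97%) on day 1 of the NanogN70 path. Over all later days the share lay between 3.8% and 14.6%, with 7.03% and 8.91% on day 12. On day 1 and on day 12 it was below the share of all regions given above. On day 12 it was higher than the share of gained regions in the NanogN70 path (8.91% against 5.38%) and lower in the Nanog path (7.03% against 8.01%). Gained regions with a high scaled day 0 pileup had a peak on day 1 more often. In the strongest of 4 groups by pileup the share was 82.6% on day 1 of the NanogN70 path, against 35.6% in the weakest, and on day 12 it was 6.23% and 5.01%. In the Nanog path the same groups had 66.2% and 34.9% on day 1 and 11.6% and 5.38% on day 12.

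**Figure D5:**
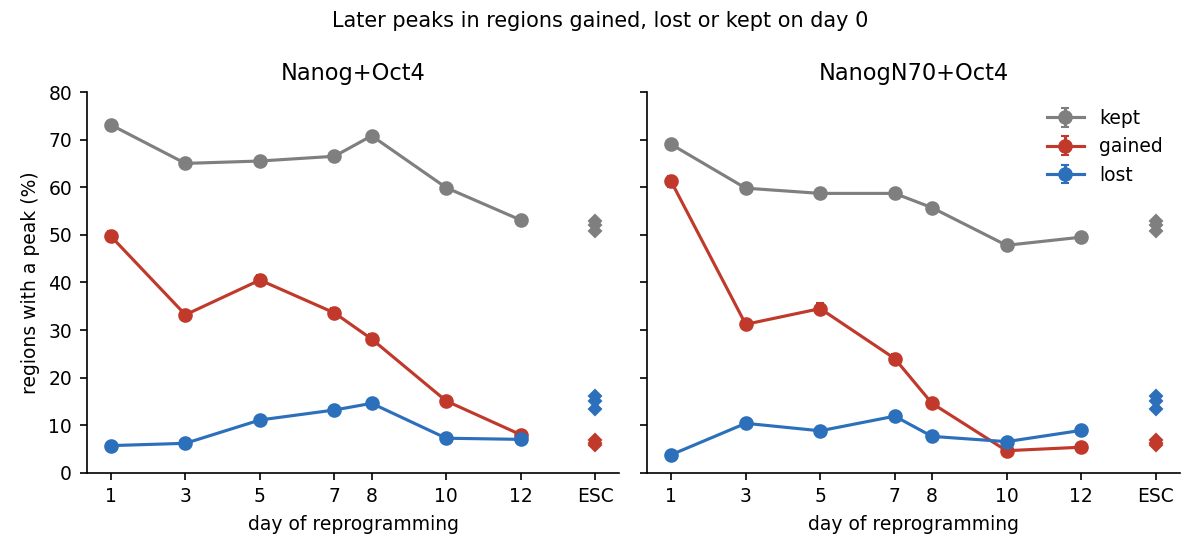
Share of regions (%) gained, lost or kept on day 0 that had a peak on each later day of the Nanog+Oct4 path (left) and the NanogN70+Oct4 path (right), with 95% exact intervals, 1 library per day; diamonds are the 3 ESC libraries. Gained regions go from 49.7% and 61.2% on day 1 to 8.01% and 5.38% on day 12, while lost regions stay at or below 14.6% on all of these days.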

How the data were processed

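ATAC-seq peaks of 20 libraries were used, of which MEF, Nanog+Oct4 Day0 and NanogN70+Oct4 Day0 were compared. Per the labels, the submitters' processing notes name Trim Galore 0.6.4, Bowtie2 2.4.5, SAMtools 1.16.1, MACS 1.4.2 and mm10. The authors dropped repetitive, mitochondrial and low-quality alignments and called peaks in each library without a control. The deposited peak score (10 times the negative log10 of the MACS p-value, at least 50 here) and the deposited summit signal (pileup in tags, not scaled to depth) were used as given. Peaks of all libraries were merged where they overlapped by 1 bp. Regions over exons of Nanog, Pou5f1, Ss18 and Gm1826 were left out as vector reads. Genes came from GENCODE M21 and bases from GRCm38, the same assembly as mm10. Intergenic regions and the printed windows of bases were named by the nearest protein-coding start. Consensus letters were searched on both strands, 21 fixed and 3 added later. Named were the 10 strongest firm regions and the 10 genes with most net firm regions in each direction, the 5 largest rises and falls, and up to 4 promoters per list and direction. Some named items are not reported here. The members and lists were chosen with earlier results of these data known. Scripts ran in Python 3.11 with SciPy and were checked on constructed peaks.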

Additional observations from a re-analysis of the deposited data

Results flagged for a closer look

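In regions left out as vector reads, 4 had a peak in both day 0 libraries and none in MEFs, and all 4 lay over exons of Nanog. Their pileups were 511 and 366, 559 and 428, 152 and 112, and 390 and 332 with Nanog+Oct4 and NanogN70+Oct4. They were picked out because they belong to data outside the comparison. The region over exons of Pou5f1 had pileups of 48 in MEFs and 730 and 576 in the day 0 libraries.

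On sequences outside the assembled chromosomes, 4 gained regions were found, with pileups of 22 and 17, 17 and 8, 16 and 9, and 11 and 7. They were counted among the 8104, but genes and bases of these sequences were not used here.

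In 3 kept regions the scaled pileup was at least 2-fold higher than in MEFs with Nanog+Oct4 and at least 2-fold lower with NanogN70+Oct4, and none showed the reverse. This difference between the day 0 libraries was not tested.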

How the results depend on the processing

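No paired analysis was possible because MEF and each day 0 group had 1 library and no test was made. Depth limits the losses, since a lost region below a MEF pileup of 19.5 could be missed in the Nanog+Oct4 library at unchanged openness. With a minimum score of 100, 3315 regions were gained and 33415 lost (9.03% gained), ESC shares were 4.37% of gained and 16.7% of lost regions, AP-1 shares 8.15% and 11.2%, and 17.9% of lost regions were at promoters. With the same number of top peaks (69575) per library, 20428 regions were lost and 32.2% of the changed regions were gained. In this setting 3041 gains and 2622 losses were firm. Of the gained, 14.5% were at promoters, 11.2% open in ESCs and 8.05% had AP-1 letters, and of the lost 16.3%, 19% and 10.7%. With the Nanog+Oct4 library alone, 12496 regions were gained (15.7% of the changed), 7098 kept regions were higher and 1398 lower, 6.95% of gained regions were open in ESCs and 8.16% had AP-1 letters, and 19.5% of lost regions were open in ESCs and 16.9% at promoters. With the NanogN70+Oct4 library alone, 39587 were gained (40.2%), 6471 kept regions were higher and 4783 lower, AP-1 shares were 5.45% and 10% of gained and lost regions, and 15.4% of lost regions were open in ESCs. Merging over the 3 libraries gave 12.8% gained. Firm losses numbered 4948 with the lower quartile as limit, 209 with the upper quartile (and 1849 firm gains), and 3983 with scaling at distal regions, where 1482 kept regions were lower. At 3-fold, 943 kept regions were higher and 70 lower. The following were chosen after seeing the data: with the limit of firm loss in both directions 1849 gains were firm, and where a fall could be seen 115 kept regions were higher. Within 1 kb of a start lay 7.16% of gained and 10.7% of lost regions, and within 50 bp of the summit 14.1% and 16.8% had AP-1 letters. Leaving out 1 ESC library at a time gave ESC shares of 4.91% to 5.42% for gained and 11.8% to 13.1% for lost regions. The POU words lay in 11.3% to 14.7% of gained and 2.79% to 3.18% of lost regions under the 6 choices computed at 25 bp, and in 27.7% and 6.27% within 50 bp. Causes of the moved values were not tested, beyond fewer peaks or another limit by construction.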
